A study of Homo sapiens and Mus musculus with 6 samples.

Results

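Contacts between promoters were extracted from Promoter Capture Hi-C (CHi-C) of GM12878, an untreated human lymphoblastoid cell line labelled as B-lymphocyte, with 3 biological replicates fixed in formaldehyde. A contact was kept where both *Hin*dIII fragments lay on the same chromosome with midpoints under 1 Mb apart and the other end was itself a bait or carried a gene name, each fragment pair was counted once, and pairs with a HIST1H histone gene were left out. This gave 22209 promoter pairs, which were 25.05% of the 88667 fragment pairs called in GM12878. They were drawn from 26091 calls and joined 13794 fragments, of which 12604 were listed as a bait and 1190 were named as an other end without being listed as a bait. At the upper limit of distance, 86 members lay within 100 kb below it, and 43 promoter pairs within 100 kb above it were left out. The authors called all 3 replicates together, so the calls form a single set without a spread between replicates, and all intervals below cover counting error only. The cell line is 1 immortalised line, and contact data hold no expression with which its B-cell label could be checked.

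Promoter CHi-C ligates DNA ends that lie close together in the nucleus and then enriches the library for fragments that carry promoters. A bait-to-bait interaction therefore joins 2 captured promoters, and it can be called from either of them. Promoters come together in gene-dense regions, within families of neighbouring genes and in domains of shared chromatin state. CTCF is a zinc finger protein that binds a directional motif, and chromatin loops are known to join CTCF sites that point towards each other.

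The reference sequence was used to ask whether CTCF motifs in the paired fragments point towards the partner. A 14-letter core of the CTCF consensus was searched on both strands of every fragment, with no mismatch allowed, and 3.83% of the 15349 listed baits outside the HIST1H genes held a match. The windows below come from the 4 promoter pairs with the highest score in which both ends held matches that faced the partner, leaving aside windows in untranslated regions and 1 chromosome, and they are shown because the direction of such matches is compared in the results. Each window is written 5′ to 3′ along the strand of its match, with hg19 coordinates, and the capitals mark the match.

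EGF / RNU6-35P fragment, chr4:110920093-110920146, plus strand: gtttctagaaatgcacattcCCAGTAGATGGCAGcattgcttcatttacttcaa
RP11-380D23.1 fragment, chr4:111440209-111440262, minus strand: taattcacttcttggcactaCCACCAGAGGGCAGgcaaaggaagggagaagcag
DTX4 fragment, chr11:58939046-58939099, plus strand: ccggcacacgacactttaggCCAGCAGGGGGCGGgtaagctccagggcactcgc
OR5A2 fragment, chr11:59197562-59197615, minus strand: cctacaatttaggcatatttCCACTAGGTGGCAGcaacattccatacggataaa
CFD / ELANE / PRTN3 fragment, chr19:857139-857192, plus strand: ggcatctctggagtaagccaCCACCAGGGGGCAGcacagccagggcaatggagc
CNN2 fragment, chr19:1036068-1036121, minus strand: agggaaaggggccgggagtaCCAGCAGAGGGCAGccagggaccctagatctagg
CEBPB fragment, chr20:48806963-48807016, plus strand: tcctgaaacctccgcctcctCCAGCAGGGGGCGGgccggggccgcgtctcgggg
RP4-530I15.9 fragment, chr20:49192574-49192627, minus strand: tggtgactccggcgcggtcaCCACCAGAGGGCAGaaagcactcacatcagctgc

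The EGF and DTX4 windows were intronic in those genes, the CEBPB window in CEBPB-AS1 and the RP4-530I15.9 window in PTPN1, while the CNN2 window overlapped an exon of CNN2. The RP11-380D23.1 window lay within ENPEP and overlapped an exon of an unnamed gene on the opposite strand. The OR5A2 window and the CFD / ELANE / PRTN3 window overlapped no annotated gene, and were 3.7 kb and 2.29 kb from the nearest coding start. These 4 pairs spanned 515.4, 248.5, 178.5 and 389.2 kb, and their scores were 33.38, 20.88, 13.73 and 12.29 on 33, 17, 11 and 19 reads.

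Close to 30% of possible promoter pairs were called up to 100 kb, and the share was lower at each longer distance class. Of all 169030 pairs that the listed baits could form under 1 Mb, 20302 were called, which is 12.0%. Listed baits are those with at least 1 call, so pairs with other captured baits are not among the possible ones. The call rate was 30.1% (95% Wilson interval 29.2 to 31.0) under 50 kb, 29.7% at 50 to 100 kb and 26.3% at 100 to 200 kb. It was 13.7% at 200 to 500 kb and 2.09% (1.99 to 2.19) at 500 kb to 1 Mb. The median distance was 169 kb (95% interval 167 to 172), with quartiles of 78.9 and 302 kb. For the 64041 calls under 1 Mb to fragments that are no bait, the median was 171 kb (169 to 172), and the intervals overlapped. In mouse embryonic stem cells (mESCs), called in the same way from 2 replicates, promoter pairs had a median distance of 146 kb (144 to 149), and 11.7% of possible pairs were called. The mESC call rate was higher than that of GM12878 under 50 kb, at 35.3% (34.5 to 36.1). It was lower at 100 to 200 kb, at 24.9% (24.4 to 25.4), and at 200 to 500 kb, at 11.3% (11.1 to 11.6). The unequal depth of the 2 cell types was not adjusted for.

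**Figure D1:**
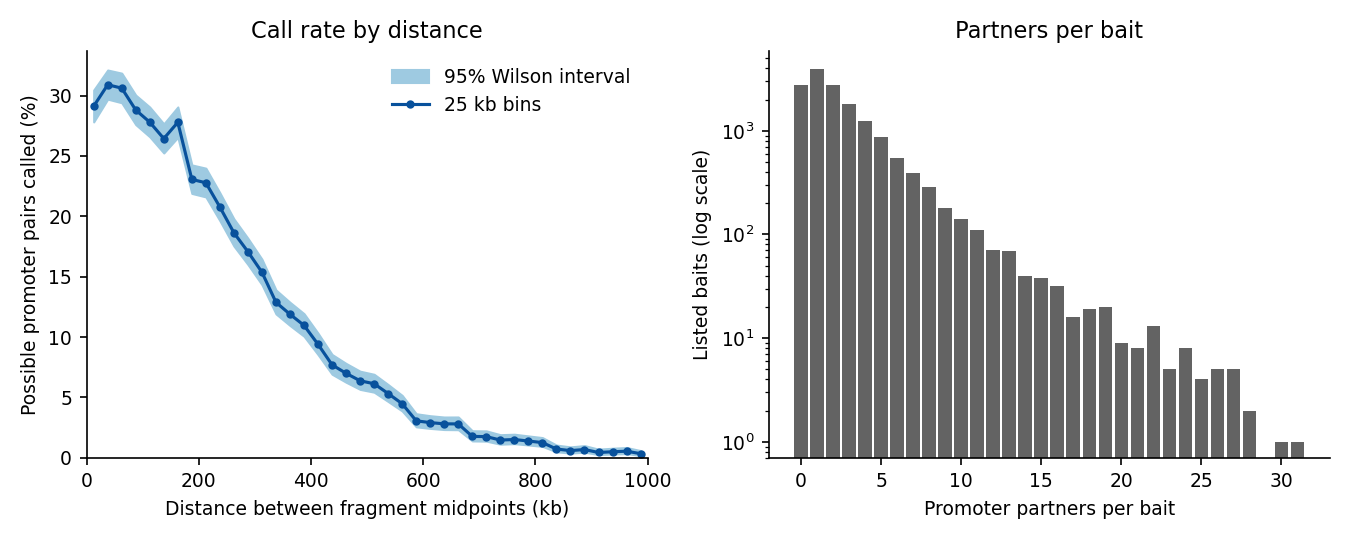
Share of possible promoter pairs called in GM12878 in 25 kb bins of the distance between fragment midpoints, with 95% Wilson intervals (left), and number of listed baits by number of promoter partners, on a log scale (right). The call rate stays near 30% up to 100 kb and is at most 1.52% from 750 kb, and the number of baits is largest at 1 partner (3911 baits) with a tail out to 31.

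Listed read counts were combined over the replicates, weighted and rounded by the authors. The CHiCAGO score is derived from a weighted p-value for this count exceeding its background. By the paper, that background depends on distance and on separate factors of the bait and of the other end. The read counts of the promoter pairs ran from 3 to 279 with a median of 14, and the median dropped from 30 under 50 kb to 7 at 500 kb to 1 Mb. The calls to unbaited fragments had a median of 16 reads. Scores were nevertheless higher for the promoter pairs: 23.6% (23.1 to 24.1) of their calls reached a score of 10, compared with 12.3% (12.0 to 12.6) of the calls to unbaited fragments. The part of capture at both ends in this difference was not tested. In 65.6% of the promoter pairs, an end carried several gene symbols, and the contact of such a fragment cannot be assigned to a single gene.

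Of the 10 pairs with the highest scores, 3 shared a single fragment on chromosome 11. The highest score, 92.67 on 79 reads, was given to a pair that joined the TMEM179B / TMEM223 fragment (chr11:62552270-62559742), named for genes of membrane proteins, with the RNU2-2P / WDR74 fragment 52.8 kb away. WDR74 acts in ribosome assembly. The same TMEM179B / TMEM223 fragment was an end of the second pair, with TAF6L, a subunit of histone acetyltransferase complexes (score 91.6, 117 reads, 14.3 kb), and of the sixth, with the small nucleolar RNA host gene SNHG1 (score 62.66, 54 reads, 65.1 kb). It had 23 promoter partners in all, and its RNU2-2P / WDR74 partner had 24.

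The other 7 of the 10 pairs with the highest scores were on chromosomes 1, 2, 3, 11, 12 and 14. RABGGTB, a subunit of the enzyme that attaches lipid to Rab proteins, was joined with a nearby fragment that carries RABGGTB and the meiotic gene MSH4, at a score of 69.97 on 87 reads and a distance of 5.85 kb. The metalloprotease gene ADAMTS8 was joined with RP11-890B15.2 over 433 kb at scores of 58.83 and 67.36 from its 2 ends, on 70 reads. This was the longest of the 10. The small GTPase gene ARF6 was joined with C14orf183 over 197 kb (score 66.18, 52 reads), and the receptor gene GPR55 with SPATA3 over 32.7 kb (60.96, 60 reads). MDM1, which encodes a centriole protein, was joined with the GTPase gene RAP1B over 276 kb at a score of 60.34 on 27 reads. ABCF3 and the translation initiation factor gene EIF4G1 were 126 kb apart (59.76, 41 reads), and C1orf189 was 66.7 kb from HAX1 / UBAP2L (59.48, 79 reads).

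Among pairs at 500 kb to 1 Mb, the highest score was 33.38, on 33 reads, for the EGF / RNU6-35P and RP11-380D23.1 fragments whose CTCF windows are printed above. EGF encodes epidermal growth factor. The next pair joined ORAOV1 with a bait on chromosome 11 that the list names NA, 631 kb apart (27.31, 19 reads). CD86, a costimulatory ligand that B cells show to T cells, was joined with POLQ, which encodes a DNA repair polymerase, over 505 kb at a score of 25.12 on 12 reads. The guanine exchange factor gene TRIO was joined with FAM105B, whose product removes linear ubiquitin chains, over 524 kb (23.01, 13 reads), and the Eph receptor gene EPHB6 with the taste receptor gene TAS2R60 over 587 kb (22.45, 15 reads). The list holds 256 fragments, all baits, with NA in place of a gene symbol, and they were an end of 413 promoter pairs.

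A pair of baits was usually called from 1 of them only. Of the 20302 pairs between listed baits, 3882 (19.1%, 18.6 to 19.7) were called from both ends, compared with 26.3% (25.8 to 26.8) in mESCs. Depth and number of replicates differ between the cell types and were not adjusted for. In GM12878, the share was highest at 100 to 200 kb, at 22.2% (21.1 to 23.4), and lowest at 500 kb to 1 Mb, at 13.3% (11.7 to 15.1). Pairs called from both ends had a median of 22 reads and those called from 1 end a median of 13. The read count was the same from both ends in 3851 of the 3882 pairs (99.2%) and never differed by more than 3 reads. The scores were equal in 9 pairs. The ratio of the higher to the lower score had a median of 1.4 (1.38 to 1.42), reached 2 in 811 pairs (20.9%) and was at most 10.6, among pairs in which both scores had to reach 5 to be listed. The TMEM179B / TMEM223 and RNU2-2P / WDR74 pair had 92.67 from the first fragment and 11.39 from the second, and the MDM1 and RAP1B pair had 8.64 and 60.34. The longer fragment gave the higher score in 48.3% (46.8 to 49.9) of the pairs with unequal scores. In the paper's model, a fragment has 1 factor as bait and another as other end, so the background can differ between the 2 directions. A pair called from 1 end only did not reach a score of 5 from the other, which does not mean that the contact itself was one-sided. The part of these factors was not tested.

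**Figure D2:**
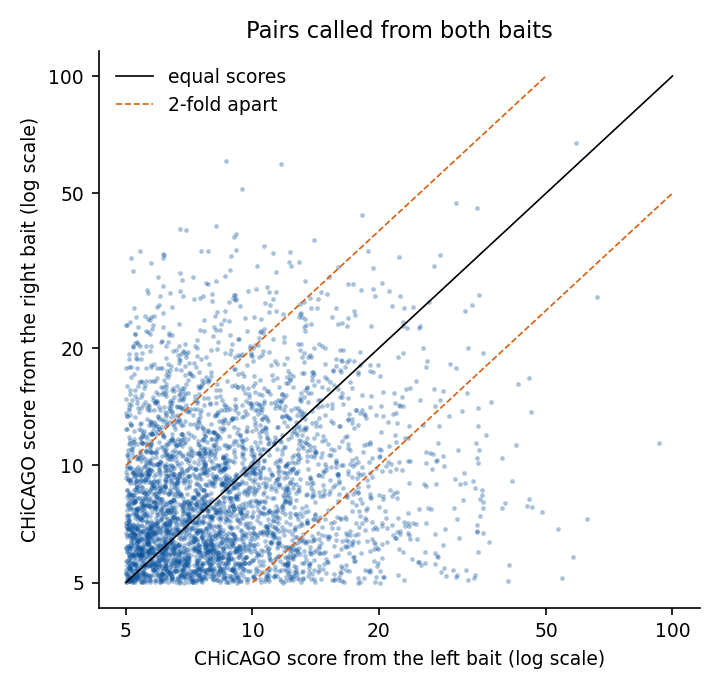
CHiCAGO scores of the 3882 promoter pairs called from both baits, from the fragment on the left (lower coordinates) and from the fragment on the right, both on log scales; the solid line marks equal scores and the dashed lines scores 2-fold apart. The points fill the area on either side of the solid line, and 811 of them are 2-fold or more apart although the read counts of the 2 directions were nearly always the same.

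Most baits had few promoter partners, and a small group held many. Over the 15349 listed baits, the median was 2 partners (quartiles 1 and 4) and the mean 2.77. No partner was called for 17.9%, 1 to 3 partners for 55.2%, 4 to 9 for 22.9% and 10 or more for 4.01% of these baits. Captured baits without a call of their own are not listed, so the share without a partner is understated for all captured baits. The tenth of baits with the most partners held 36.3% of all pair ends. Fragments with more partners were richer in G and C, longer and in denser surroundings: from baits with no partner to those with 10 or more, the median GC content was 45.9, 46.9, 49.1 and 50.7%, the median length 5999, 6938, 7595 and 8165 bp, and the median number of other baits within 1 Mb 11, 16, 28 and 47. The share that held the start of a protein-coding transcript was 62.5% (60.6 to 64.3) for baits without a partner and 86.8% (83.9 to 89.3) for those with 10 or more. The share of the baits within 1 Mb that were contacted had medians of 0, 10.0, 20.0 and 29.4%. CTCF matches were also denser, at 2.55, 4.46, 6.002 and 8.84 per Mb of fragment sequence in the same 4 classes.

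Among the baits with the most partners were fragments of the clustered protocadherins, adhesion proteins best known from neurons, on chromosome 5. The first 4 places had 31, 30, 28 and 28 partners, and 5 baits tied at 27, among them PCDHB16 and the FXR2 / SHBG fragment. The PCDHGB1 fragment (chr5:140726083-140733521) had 31 partners at 6.55 to 563 kb, 24 of them on its left side. They ran from PCDHA1 with 10 reads at 563 kb to PCDHGA3 with 122 reads at 6.55 kb, and the highest score was 16.23, with PCDHB11. The PCDHB10 / PCDHB9 fragment had 28 partners, 16 of them called from both ends. The DDX39B / SNORD117 fragment in the major histocompatibility complex, which carries an RNA helicase gene, had 30 partners, 24 of them on its right, and its highest score was 40.34, with MICB. None of these 30 was called from both ends. On chromosome 17, the epidermal lipoxygenase gene ALOXE3 had 28 partners out to 881 kb, and the FXR2 / SHBG fragment, named for an RNA-binding protein and the sex hormone-binding globulin, had 27.

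**Figure D3:**
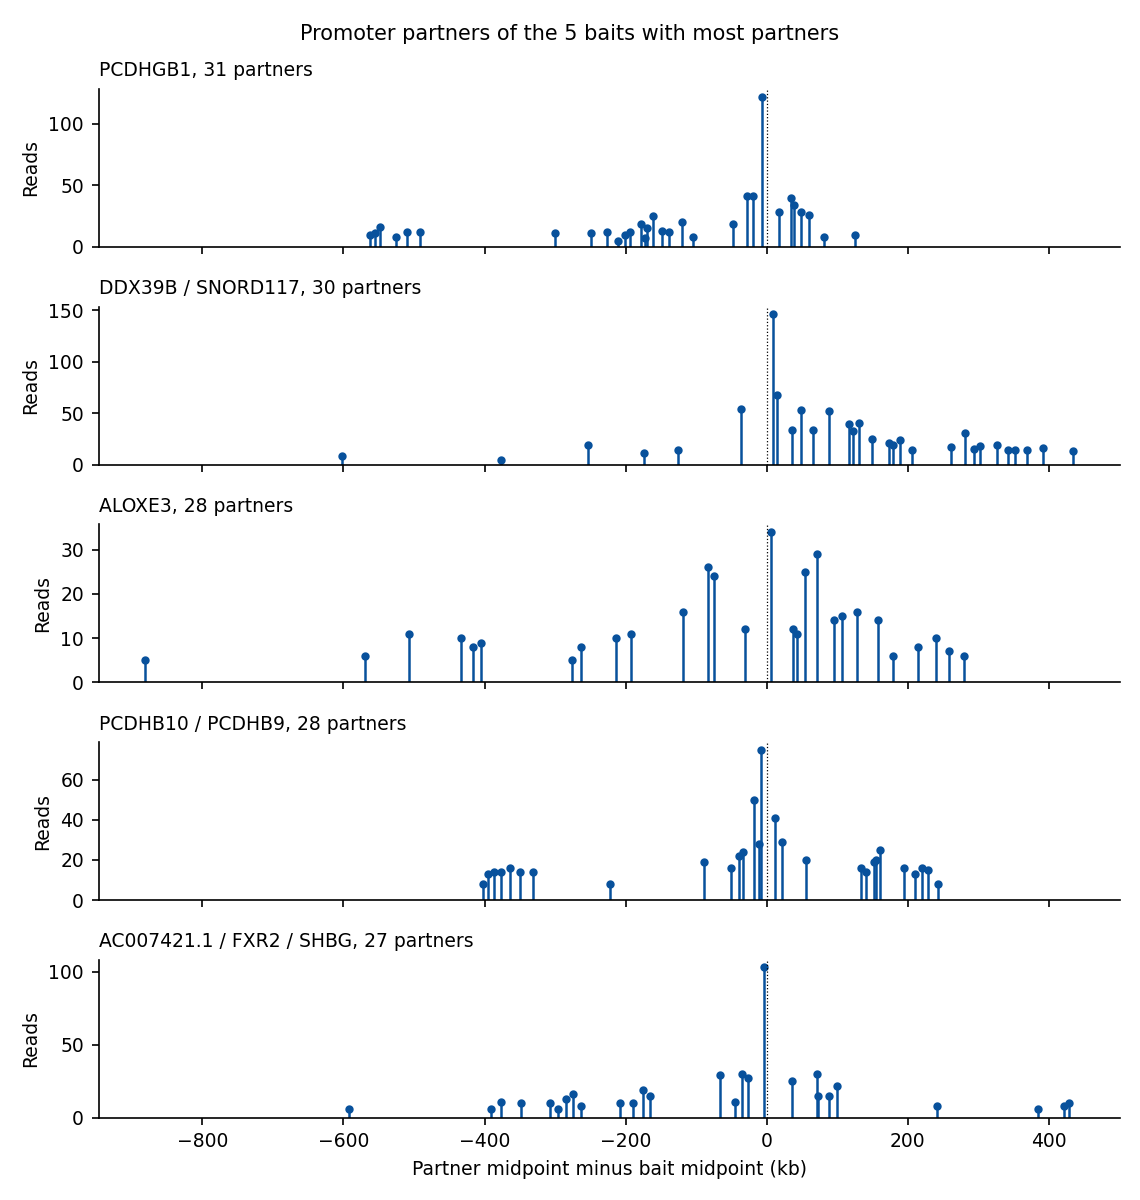
Promoter partners of the 4 baits with the most partners and of FXR2 / SHBG, which is 1 of 5 baits tied at 27 partners, by distance of the partner's midpoint from the bait's (kb, negative to the left) and listed read count. To the left of PCDHGB1, PCDHB promoters lie at -104.7 to -299.8 kb and PCDHA promoters at -491.8 to -562.8 kb, and most partners of DDX39B / SNORD117 lie to its right.

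Contacts often passed over other promoters, though less often than possible pairs did. Over all distances, pairs with no bait between were called more often than possible pairs as a whole. In 19.8% (19.3 to 20.4) of the called pairs, no other bait lay between the ends. The median was 2 baits between, and in 30.0% (29.4 to 30.6) there were 5 or more. Among the 169030 possible pairs, 5 or more baits between were more frequent than that. They were found in 65409 possible pairs at 500 kb to 1 Mb and in 32599 at 200 to 500 kb. Of the 169030 possible pairs, 14831 had no bait between, and 27.1% (26.4 to 27.8) of them were called, against 12.0% of all. Under 50 kb, the call rate was 28.9% (27.8 to 30.0) with no bait between and 32.8% (31.2 to 34.4) with 1 to 4. Possible pairs include directly adjacent fragments, which the paper recommends removing for data that are not binned. If removed, such pairs could not be called, and they all have no bait between. Their number was not determined, so this contrast cannot be read as an effect of the baits between. At 100 to 200 kb, the call rate was 27.7% (26.0 to 29.5) with none, 25.9% with 1 to 4 and 26.6% (25.4 to 27.9) with 5 or more. Beyond 200 kb, it fell with their number. At 200 to 500 kb, the rates were 22.5% (20.6 to 24.6), 17.1% and 11.3% (10.9 to 11.6), and at 500 kb to 1 Mb they were 8.77% (6.83 to 11.2), 5.75% and 1.5% (1.41 to 1.60). Distance within a class was not adjusted for, and its part was not tested.

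Promoters that shared 3 or more partners were more often called with each other in every distance class. Of all promoter pairs with at least 1 common partner, 22.3% (21.9 to 22.6) were called, and of pairs of listed baits with none, 7.22% (7.07 to 7.36). The first share includes named other ends not listed as a bait, and 2 such ends cannot be called with each other. With other ends restricted to listed baits, it was 24.15% (23.8 to 24.5). At 100 to 200 kb, the rate was 20.5% with none, 23.6% with 1, 30.2% with 2 and 48.3% (46.5 to 50.2) with 3 or more. At 500 kb to 1 Mb, it went from 1.497% with none to 17.5% (15.0 to 20.4) with 3 or more. Under 50 kb, pairs with 1 common partner were called less often than those with none, at 23.0% (21.4 to 24.6) and 28.1% (26.7 to 29.6). The number of partners of each end was not adjusted for.

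Linked through such contacts, the 13794 promoters formed 1627 connected groups. Groups of 10 or more numbered 370 and held 66.1% of the promoters. The largest joined 255 promoters by 515 pairs across 12.1 Mb of chromosome 19 (chr19:38390774-50529266), from SIPA1L3 to ZNF473. The next, on chromosome 6, joined 128 promoters by 592 pairs across 4.55 Mb, from OR2B3 to ITPR3, a stretch that includes the major histocompatibility complex.

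CTCF matches in paired fragments pointed towards the partner more often than away from it. Of 13794 paired fragments, 568 (4.12%) held a match, and 554 held matches on a single strand. Over all pairs, 1395 of 2202 such ends (63.4%, 61.3 to 65.3) faced the partner, compared with 7041 of 14238 (49.5%, 48.6 to 50.3) in possible pairs that were not called. A fragment was counted once for each of its partners. The ends are therefore not independent, and the intervals here and by distance or score below are too narrow. In calls to unbaited fragments, 73.4% (71.8 to 74.98) of the matched bait ends and 74.2% (72.2 to 76.1) of the matched unbaited ends faced the partner, both above the promoter pairs. Counted by fragment, 331 had more partners on the side their match faced, 155 had fewer, and 68 had as many on both sides. Of the 486 fragments with unequal sides, 68.1% (63.8 to 72.1) had more on the facing side. The share of ends that faced the partner was above 50% on 20 of 23 chromosomes. The exceptions were chromosome 13 with 2 of 4 ends, chromosome 15 with 19 of 45 and chromosome 22 with 19 of 43. Without the clustered protocadherins, it was 62.7% (60.7 to 64.7).

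The share of facing matches was larger at longer distances. In called pairs, it was 47.4% (41.7 to 53.2) under 50 kb, 60.2% at 50 to 100 kb, 60.0% at 100 to 200 kb, 69.4% (66.1 to 72.5) at 200 to 500 kb and 77.3% (71.0 to 82.6) at 500 kb to 1 Mb. In pairs that were not called, it stayed between 45.0 and 51.3%. It was also larger at higher scores, from 60.2% (56.1 to 64.1) at scores of 5 to 6 to 69.2% (59.1 to 77.8) at 20 or more, though these intervals overlap. Seen from the possible pairs, at 200 to 500 kb 19.7% (18.1 to 21.2) were called where the single matched end faced the partner, 8.77% (7.68 to 9.99) where it was turned away, and 13.6% (13.3 to 13.9) where neither end had matches on 1 strand only. At 500 kb to 1 Mb, these rates were 3.67% (3.10 to 4.33), 1.204% (0.886 to 1.64) and 2.05%. Under 50 kb, they were 29.4% (25.1 to 34.0), 27.6% (23.8 to 31.7) and 30.3%, which overlap. Both ends held such matches in 81 called pairs, with both facing in 26, as in the printed windows, 1 facing in 41 and neither in 14. Of possible pairs of listed baits with such matches on both ends, 19.7% (13.8 to 27.3) were called where both faced. The rates were 16.9% (12.6 to 22.25) with 1 facing and 10.5% (6.23 to 17.1) with neither, and these intervals overlap. A match is a run of letters in the reference, and binding of CTCF was not measured.

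**Figure D4:**
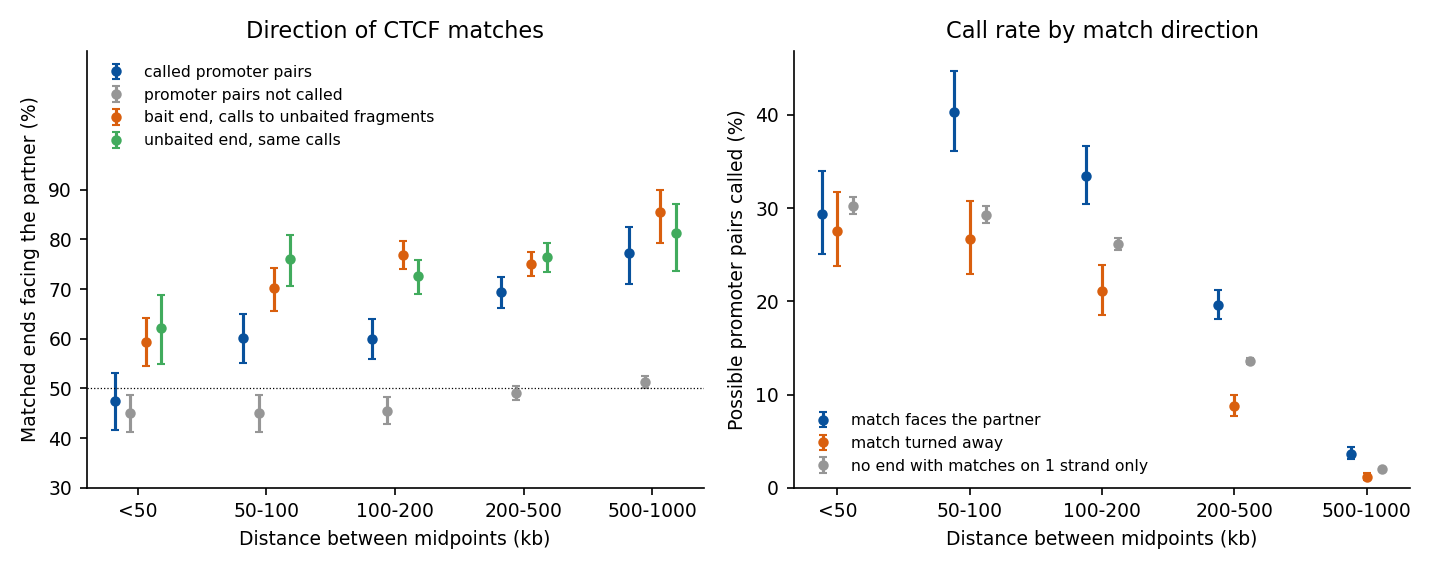
Share of ends with CTCF matches on 1 strand only that face the partner, by distance class and kind of pair (left, dotted line at 50%), and share of possible promoter pairs called when the single matched end faces the partner, is turned away, or no end has matches on 1 strand only (right), both with 95% Wilson intervals. The facing share of called promoter pairs runs from 47.4% under 50 kb to 77.3% at 500 kb to 1 Mb, and the call rates of facing and turned-away ends separate from 50 kb on.

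The direction of transcription made less difference. In the promoter pairs whose ends each had coding transcription starts on 1 strand only, 52.9% were on the same strand, 23.2% faced each other and 23.9% were back to back. Among possible pairs of listed baits, these shares were similar, at 51.0, 24.8 and 24.2%. At 200 to 500 kb, the call rates were 14.2% (13.6 to 14.9), 14.5% (13.6 to 15.4) and 13.3% (12.5 to 14.2). At 500 kb to 1 Mb, pairs on the same strand were called at 2.36% (2.13 to 2.60) and facing pairs at 1.78% (1.52 to 2.08), and these intervals do not overlap.

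Genes of a family that lie in a cluster differed widely in how often their promoters were paired. A common name root means the same 3 or more letters before the first digit or hyphen. Names of clones, open reading frames and small RNAs, and names starting with LOC, LINC, FAM, TMEM, KIAA, CCDC or SLC, were given no root. Pairs with a common root were called in 22.0% (20.8 to 23.2) of cases and other pairs in 11.7% (11.6 to 11.9), but the order depended on distance. Some same-root pairs had the same symbol on both ends. Pairs without a shared symbol were 643 of the 936 called same-root pairs and, under 50 kb, 720 of the 1557 possible ones. The other pairs had neither a common root nor a shared symbol. Under 50 kb, same-root pairs were called at 25.8% (23.7 to 28.0) and other pairs at 31.1% (30.1 to 32.1). Same-root pairs without a shared symbol were called at 28.2% (25.03 to 31.6), which overlaps the other pairs. Directly adjacent fragments, which may have been removed before calling, were not set apart here. At 500 kb to 1 Mb, same-root pairs were called more often than other pairs, at 8.67% (6.50 to 11.5) against 2.05% (1.95 to 2.15), and at 8.35% (6.21 to 11.1) without a shared symbol. The roots with the most called pairs were ZNF with 133 of 942, KRT with 85 of 421, PCDHB with 57 of 91, KRTAP with 24 of 290, and DEFB with 23 of 40 tied with HLA with 23 of 111. The call rate was 57.5% (42.2 to 71.5) for DEFB, 20.7% (14.2 to 29.2) for HLA and 8.28% (5.62 to 12.0) for KRTAP. ZNF names zinc finger proteins, KRT and KRTAP keratins and proteins associated with them, and DEFB the beta-defensins. Few of these pairs shared near-identical sequence, taken as a stretch of at least 100 bp at 95% identity or more: such a stretch joined the ends of 1 called pair of ZNF, 1 of KRT, 2 of PCDHB and none of KRTAP and DEFB.

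The clustered protocadherins had the highest share of called pairs among the gene lists with at least 10 possible pairs. Their 36 baits had a median of 18 promoter partners (2 to 31), compared with 2 over all baits. Of 630 possible pairs among them, 284 were called, which is 45.1% (41.2 to 49.0), while all possible pairs of baits at the same distances were called at 18.6%. The contacts ran across the 3 subfamilies, which lie side by side. Between PCDHA and PCDHB promoters, 71 of 112 pairs were called (63.4%, 54.2 to 71.7, against 14.5% at the same distances), with a median of 10 reads at a median of 350 kb, and 50 of them were called from both ends. Between PCDHA and PCDHG promoters, 38 of 112 were called (33.9%, 25.8 to 43.1, against 3.75%), at a median of 548 kb and with 4 to 16 reads. PCDHB promoters were paired among themselves in 57 of 91 cases (62.6%, 52.4 to 71.9, against 29.3%), and PCDHG promoters in 40 of 91 (43.96%, 34.2 to 54.2, against 29.2%). PCDHB promoters were paired with PCDHG promoters in 66 of 196 cases (33.7%, 27.4 to 40.5, against 18.1%). PCDHA promoters were paired among themselves in 12 of 28 cases (42.9%), and the interval of 26.5 to 60.9 includes the 29.1% of all pairs at the same distances. The highest score was 33.65 on 82 reads, between PCDHB8 and PCDHB16, whose fragments have midpoints 2.63 kb apart. Only 3 of the 36 fragments held a CTCF match at the setting used here, all on the plus strand.

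HOX promoters, which drive the homeobox genes that pattern the body axis, were called with each other less often than all pairs at the same distances. Of 154 possible pairs within the HOX clusters, 5 were called, which is 3.25% (1.40 to 7.38), against 29.7% for all pairs at the same distances. HOXA had none of 15, HOXB 1 of 66, HOXC 4 of 28 and HOXD none of 45. The counts of 0 allow shares of up to 20.4% and 7.87% by the upper Wilson bound. The 5 called pairs had 31 to 43 reads but scores of 5.4 to 6.96, the highest between the HOXB3 and HOXB5 / HOXB6 fragments. All promoter pairs under 50 kb had a median of 30 reads and a median score of 8.1. A call depends on the background of the bait, which the paper estimates from reads nearby, and the list holds no reads of uncalled pairs. The low call rate therefore does not show how often HOX promoters met, and the part of the background was not tested. The 36 HOX baits did contact other promoters, in 94 pairs, and the HOXC6 / HOXC9 fragment had 13 partners, with its highest score to COPZ1 / NFE2 301 kb away (19.68, 13 reads).

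For the keratin, ZNF and olfactory receptor lists, the interval of the call rate within the list included the rate of all pairs at the same distances. Keratin promoters were at 20.2% (16.6 to 24.3) against 17.6%, ZNF promoters at 14.1% (12.0 to 16.5) against 15.7%, and olfactory receptor promoters, with 211 of 1407 pairs, at 15.0% (13.2 to 17.0) against 15.6%. The highest-scoring keratin pair joined KRT39 and KRT33B over 403 kb (22.34, 17 reads), and KRT13 had the most partners, at 15. Among the olfactory receptors it joined OR1J1 and OR1K1 over 319 kb (30.64, 20 reads), and OR52N4 had 16 partners. The highest-scoring ZNF pair joined 2 fragments of ZNF487, and ZNF384 had the most partners, at 18. Keratin, ZNF and olfactory receptor baits had medians of 4.5, 3 and 3 partners, compared with 2 over all baits.

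**Figure D5:**
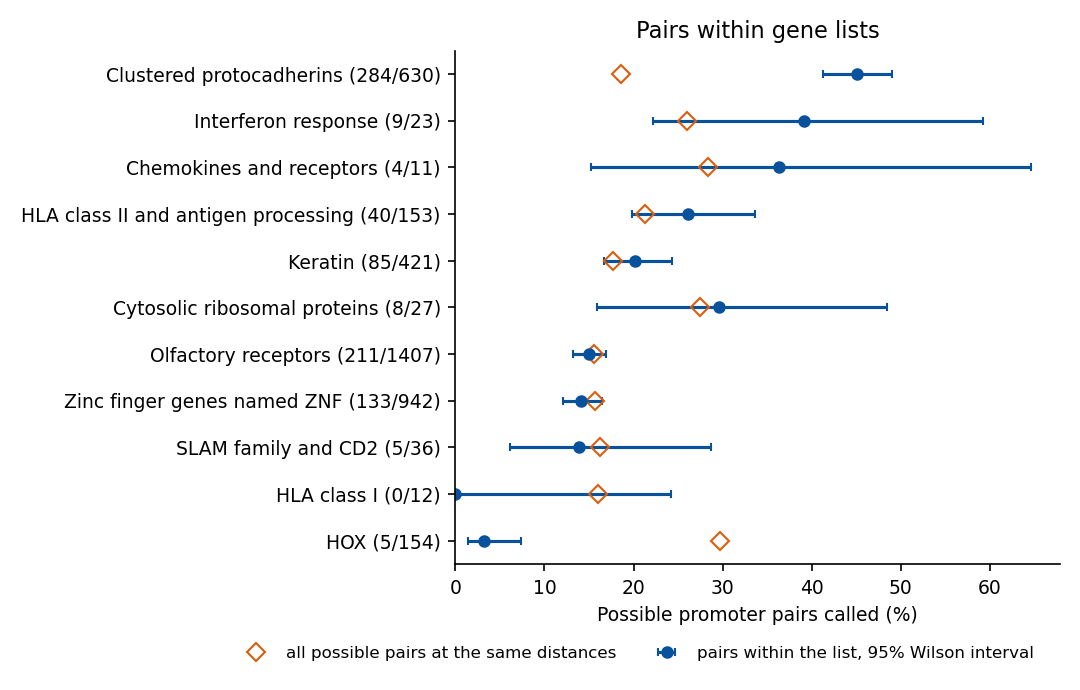
Share of possible promoter pairs called within each gene list that has at least 10 possible pairs (filled points, 95% Wilson intervals, called over possible pairs in brackets) and share called of all possible pairs at the same distance classes (open diamonds). Clustered protocadherins lie above their diamond (45.1 against 18.6%) and HOX promoters below theirs (3.25 against 29.7%), while the intervals of the other lists include it.

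The HLA class II list, which holds the class II genes, their chaperone CD74 and activator CIITA, and the peptide transporter and immunoproteasome genes of the same region, had 20 baits with a median of 5 partners. Within it, 40 of 153 possible pairs were called (26.1%, 19.8 to 33.6, against 21.3% at the same distances), with 3 to 88 reads. HLA-DOB and HLA-DOA, which encode the chains of a protein that tempers peptide loading, were paired over 193 kb at a score of 42.0 on 26 reads, the highest of any pair within the lists. HLA-DOB had 20 partners and HLA-DOA 19. HLA-DOB was also paired with HLA-DMA, a gene of the peptide exchange factor, over 138 kb (35.28, 23 reads), and HLA-DRA with HLA-DOB over 377 kb (18.58, 36 reads). The PSMB9 / TAP1 fragment and HLA-DMA were paired over 100 kb (29.48, 22 reads). Class I promoters had no pair among 12 possible ones, which allows a share of up to 24.2% by the upper Wilson bound, against 16.05% at the same distances, and their highest score was with a promoter outside the list, between MICB and the DDX39B / SNORD117 fragment 36.04 kb apart (40.34, 54 reads).

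B cell receptor and surface genes had a median of 3.5 partners over 28 baits, compared with 2 over all baits. Within the list, 1 of 9 possible pairs was called (11.1%, 1.99 to 43.5, against 24.1% at the same distances). It joined 2 fragments that carry BLK, a Src family kinase of B cells, over 67.2 kb (17.43, 20 reads), and CD27, a marker of memory B cells, had the most partners, at 13, led by GAPDH 89.1 kb away (22.02, 33 reads). B lineage transcription factors had a median of 2 partners, and 9 of their 25 baits had none, where 17.9% of all listed baits had none. Their most connected fragment, IKZF3 / ZPBP2, had 7 partners and was paired with GSDMB / ORMDL3 over 55.5 kb (18.12, 43 reads). Within the list, 2 fragments that carry POU2F2 were paired (7.24, 29 reads). The NF-kB genes had a median of 4 partners over 17 baits and none was without a partner, against the same 17.9% of all listed baits. Within the list, 2 fragments that carry RELB were paired over 42.5 kb (6.03, 31 reads).

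For 4 smaller lists of immune genes, the interval of the call rate within the list included the rate of all pairs at the same distances. In the SLAM family, a cluster of receptors on lymphocytes, 5 of 36 possible pairs were called (13.9%, 6.08 to 28.7, against 16.2%), with CD48 and SLAMF7 highest at 8.27 on 40 reads, and SLAMF7 had 9 partners. Of the interferon response genes, 9 of 23 possible pairs were called (39.1%, 22.2 to 59.2, against 26.0%). OAS3 was paired with the OAS2 / OAS3 fragment over 40.2 kb (16.54, 32 reads), GBP2 with GBP6 over 212 kb (11.21, 11 reads) and IFI44L with IFI44 over 33.0 kb (8.84, 13 reads), and IRF9 / RNF31 had 10 partners. Of the chemokine and receptor genes, 4 of 11 were called (36.4%, 15.2 to 64.6, against 28.4%). CXCR5, the receptor that guides B cells into follicles, had 5 partners, led by DDX6 96.3 kb away (10.45, 37 reads). In the TNF superfamily, 3 of 6 possible pairs were called (50.0%, 18.8 to 81.2, against 28.2%), and the LTA / TNF fragment, with 16 partners, was paired with LTB 13.5 kb away (11.09, 67 reads).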

How the data were processed

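Promoter CHi-C of GM12878 (3 biological replicates) and, for comparison, mESCs (2) was analysed, and Hi-C data were not used here. Read pairs were mapped to hg19 by the authors with HiCUP, using Bowtie 1.1.0 per the submitters' processing notes, and artefacts and duplicates were removed. The read count deposited by the authors is combined over replicates, weighted by size factors and rounded, and was treated as a score rather than a raw count. The second deposited score is the CHiCAGO score, a soft-thresholded negative log of a weighted p-value, which the authors computed on all replicates jointly. The list holds calls with a score of at least 5. Captured reads per replicate are not in the lists, so the depth behind a value is its listed read count. The number of calls or possible pairs sets the precision of a share. The paper gives the captured read pairs of each replicate, which were unequal, and comparisons with mESCs were not adjusted for them. It left replicate 1 of GM12878 out of its weight estimation and describes it as likely of poorer quality.

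Calls were read as bait and other end. Possible pairs were all pairs of listed baits (baits with at least 1 call) on the same chromosome under 1 Mb apart. Directly adjacent fragments were counted among them, although the paper recommends removing fragments next to a bait. Call rates at short distances may therefore be understated. Shares have 95% Wilson intervals and medians exact 95% order-statistic intervals (SciPy 1.17.1, Python 3.11.15). Calls at neighbouring fragments are not independent, nor are pairs or ends that share a fragment. The intervals cover counting error only and treat them as independent. No p-value was computed. All 56775 listed fragments matched the *Hin*dIII digest of hg19. CTCF matches came from this sequence, transcription starts of protein-coding genes from GENCODE v44lift37, and near-identical stretches from blastn 2.17.0. Windows on chromosome 8 or in untranslated regions were passed over when sequences were chosen for printing. Call rates of gene lists were set beside the rate of all pairs, averaged over the distance classes of the list's pairs. The counting was tested on simulated calls.

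The named genes are the 10 pairs with the highest score, the 5 highest at 500 kb to 1 Mb, the 5 baits with most partners, the 5 name roots with most called pairs and, in each of 20 gene lists, the best pair within it and the bait with most partners. Further members of the protocadherin, HOX, HLA, interferon and chemokine lists were named after their values were seen. Ties went to more reads for pairs, to position for baits and to the alphabet for name roots. For 2 of the lists, a result that this rule names is not reported here. Members and lists were chosen with earlier results of these data known. Alternatives were higher score and read thresholds, the authors' browser list, a stricter definition of baited other ends, a shortest distance, a mismatch in the CTCF consensus, longer name roots and, added after seeing the data, leaving out fragments named NA.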

Additional observations from a re-analysis of the deposited data

How the results depend on the processing

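No paired analysis was possible because the calls were made on all replicates together and the columns carry no replicate. The authors' browser list held the same 22209 promoter pairs and gave identical values wherever they were recomputed, so it is no separate check. Without fragments named NA (21796 pairs), every recomputed percentage and median stayed within the 95% interval of the reported one. With a score of at least 10, there were 5653 promoter pairs, 3.18% of possible pairs were called, 9.42% were called from both baits, the median distance was 136150 bp, the median bait had 0 partners, 23.3% had no bait between, 13.7% of pairs with a common partner were called, 6.57% of same-root pairs were called, 51.5% were on the same strand and 66.5% of CTCF matches faced the partner. With at least 10 reads, 9.04% of possible pairs were called, 24.7% from both baits, the median distance was 130170 bp, the median bait had 1 partner, 23.6% had no bait between, and 24.9% of pairs with a common partner and 18.9% of same-root pairs were called. At 20 kb or more, 11.7% of possible pairs were called, the median distance was 180270 bp and 16.6% had no bait between. With other ends restricted to listed baits, 24.15% of pairs with a common partner were called. With 1 mismatch allowed in the CTCF consensus, 56.1% of matches faced the partner. With name roots of at least 4 letters, 24.5% of same-root pairs were called. The causes were not tested, except that stricter thresholds leave fewer calls by construction. Depth limits the longest pairs, whose median was 7 reads.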

Other observations

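The T cell list had 21 baits with a median of 3 partners, and 4 of 8 possible pairs were called (50.0%, 21.5 to 78.5, against 29.05% for all pairs at the same distances). Of these, 2 fragments of IL2RA, a chain of the interleukin 2 receptor, had the highest score over 44.2 kb (17.38, 33 reads), and the CD4 / GPR162 / LEPREL2 fragment had 20 partners. Among globin and erythroid genes, 2 fragments of TAL1 were paired (20.24, 82 reads), and the GCDH / KLF1 fragment had 7 partners. In the BCL2 family, which controls cell death, a median of 2 partners was seen, and the 2 fragments of BAD / GPR137 were paired (11.07, 120 reads).

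Housekeeping genes had a median of 3 partners, both for 95 baits of cytosolic ribosomal protein genes and for 30 of proteasome genes. The ribosomal genes were called with each other in 8 of 27 possible pairs (29.6%, 15.8 to 48.5, against 27.4% for all pairs at the same distances), led by RPS29 and RPL36AL 19.3 kb apart (15.85, 61 reads), and RPS26 had 21 partners. The proteasome genes had no pair among 3 possible ones. Histone genes outside the HIST1H group had a median of 6.5 partners over 14 baits, and HIST2H2AA3 / HIST2H2BD was paired with HIST2H2BE over 39.1 kb (29.6, 67 reads), where near-identical sequence between the fragments was not tested. The HIST3H2A / HIST3H2BB fragment had 10 partners.

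By chromosome, baits on chromosome 19 had the highest mean number of promoter partners, at 4.04, and those on chromosome 18 the lowest, at 1.37. At a fixed distance of 100 to 200 kb, the call rate was highest on chromosome 2, at 33.1% (30.4 to 35.9), and lowest on chromosome 22, at 20.7% (17.1 to 25.0), while chromosome 19 was at 26.0% (24.1 to 28.1).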
